A study of Mus musculus with 107 samples.

Results

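Gpihbp1, Lpl, Cd36, Fabp4 and Fabp5, genes of lipid uptake at the capillary wall, were described in 12 mouse syngeneic tumor models. The 5 genes were taken by symbol from the 50686 genes of the expression table, and Gpihbp1 had been picked on its much lower level after lenvatinib (LEN), an oral inhibitor of VEGF receptors and other receptor tyrosine kinases. That difference is therefore given as a description, with no test, whereas the other 4 genes were tested. All 5 genes passed the minimum used for testing, a mean of at least 1 TPM (a transcript's share of all transcripts, corrected for length) over the tumors compared.

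RNA of whole tumors was measured in 3 groups per model. Base tumors were treatment-naive and were collected at about 100 mm3 (35 tumors). NT tumors were left untreated until day 8 (36 tumors), and LEN tumors came from mice given LEN at 10 mg/kg once daily by mouth and were also collected on day 8 (36 tumors). Every group held 3 tumors of separate numbers except Base of MC38, which held 2. Each model stands for 1 cell line growing under the flank skin of 1 host strain, in mice that were 7 weeks old when they received the cells. RAG cells had first been adapted to growth in mice. BNL 1ME A.7R.1, RAG, Renca, CT26.WT, EMT6 and 4T1 grew in BALB/cAnNCrlCrlj mice, Hepa 1-6 in C57L/J, KLN205 in DBA/2NCrl, LL/2 in C57BL/6JCrl, MC38 and B16-F10 in C57BL/6NCrl, and MBT2 in C3H/HeNCrl mice. Mice were female except those bearing BNL 1ME A.7R.1 and Hepa 1-6.

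Capillary endothelial cells hold lipoprotein lipase, which cells of the surrounding tissue secrete, on their luminal surface through GPIHBP1. GPIHBP1 is a small membrane-anchored protein with an acidic stretch that takes part in binding the enzyme. Lipoprotein lipase splits triglycerides of passing lipoproteins into fatty acids. CD36 takes fatty acids up at the membrane, and the fatty acid-binding proteins FABP4 and FABP5 carry them inside endothelial cells, adipocytes and macrophages.

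In the annotation (GENCODE M21, build GRCm38), Gpihbp1 lies on chromosome 15 from 75596628 to 75599481 on the plus strand, and Lpl on chromosome 8 from 68880491 to 68907448, also on the plus strand. Cd36 lies on chromosome 5 from 17781690 to 17888801 on the minus strand. Fabp4 (10204088 to 10208576, minus strand) and Fabp5 (10012548 to 10016607, plus strand) both lie on chromosome 3.

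Before treatment, Gpihbp1 had the most even group means of the 5 genes, with 3.04-fold between the highest and the lowest model. Base tumors ranged from 4.88 to 21.74 TPM with a median of 9.45 (n = 35), a scale that corrects for gene length and allows levels of different genes to be compared. Renca had the highest group mean (18.7 ± 2.63 TPM, SD, n = 3), and KLN205 had the lowest (6.16 ± 1.52 TPM, SD, n = 3). Ordered by their means, the models ran Renca, EMT6, LL/2, MBT2, RAG, Hepa 1-6, CT26.WT, BNL 1ME A.7R.1, B16-F10, 4T1, MC38 and KLN205. Neighbors in that order overlapped except that Renca stood above EMT6 and B16-F10 stood above 4T1. Base levels differed between models in limma's F test with Benjamini-Hochberg adjustment over all 17542 genes tested (adjusted p = 1.66e-05), as they did for 93.6% of genes.

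From Base to day 8 without treatment, Gpihbp1 rose in 2 models and had no called mean change. The mean over models of the difference in log2(TPM + 1), NT minus Base, was 0.04 (SE 0.07, adjusted p = 0.710), with 6 models higher and 6 lower, and this small value turned negative under both other scalings tried (-0.0079 and -0.017). The difference itself varied between models (F test, adjusted p = 0.000156, against 66.5% of genes with such a call). In BNL 1ME A.7R.1, Base tumors had 6.74, 10.58 and 9.14 TPM and NT tumors had 17.29, 17.16 and 16.87 TPM. In KLN205, Base tumors had 5.01, 7.88 and 5.6 TPM and NT tumors had 11.29, 9.1 and 13.95 TPM.

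In both models every NT tumor stood above every Base tumor, as for 36.6% and 45.8% of genes, and Gpihbp1 rose by 0.90 in BNL 1ME A.7R.1 (adjusted p = 0.00627, against 23.6% of genes called higher) and by 0.80 in KLN205 (adjusted p = 0.0276, against 28.3%). The KLN205 call was lost without any 1 of 5 of its 6 tumors (adjusted p up to 0.0872), under upper-quartile rescaling (0.53, adjusted p = 0.357), under protein-coding rescaling (0.51, adjusted p = 0.340) and with no minimum on TPM (adjusted p = 0.0596). In KLN205 the summed endothelial level was also higher in NT (199.2 to 259.4 TPM) than in Base (137.6 to 190.1 TPM), whereas in BNL 1ME A.7R.1 it overlapped, and its part in the Gpihbp1 differences was not tested. LL/2 went the other way, from 10.55, 15.93 and 12.98 TPM in Base to 3.53, 8.75 and 5.15 TPM in NT, without overlap, as for 10.7% of genes, but short of the threshold (log2 difference -1.11, adjusted p = 0.0670).

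After LEN, Gpihbp1 was lower than in NT in 12 of 12 models, and no LEN tumor reached the level of any NT tumor of its own model. LEN tumors ranged from 0.63 to 7.27 TPM (median 2.35, n = 36), compared with 3.53 to 19.14 TPM in NT (median 10.67, n = 36). Of the 36 LEN tumors, 23 stood below every NT tumor of the whole series. Within each model the LEN tumors also stood below all Base tumors. Among 17351 genes, 0.0403% were lower without overlap in all 12 models, which are the 7 genes Gpihbp1, Cdh5, Robo4, Nid2, Pcdh12, Prnd and Mest. The 6 others were named after their values were seen.

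The size of the difference varied with the model. In B16-F10, NT tumors had 12.62, 7.16 and 10.05 TPM and LEN tumors had 0.63, 1.24 and 0.69 TPM, so that the LEN mean was 0.0858 times the NT mean. In Renca, NT tumors had 14.12, 15.17 and 19.14 TPM against 2.11, 2.34 and 1.5 TPM after LEN (ratio 0.123). In BNL 1ME A.7R.1, the NT tumors listed above contrasted with 2.42, 2.0 and 4.55 TPM after LEN (ratio 0.175). These models had the lowest ratios, and B16-F10 held both LEN tumors of the series under 1 TPM.

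In KLN205, the NT tumors given above contrasted with LEN tumors at 1.04, 4.09 and 1.83 TPM (ratio 0.203). In 4T1, NT tumors had 7.1, 7.75 and 14.72 TPM and LEN tumors had 1.32, 2.08 and 2.95 TPM (ratio 0.215). In CT26.WT, NT tumors had 8.01, 5.95 and 8.37 TPM and LEN tumors had 1.44, 3.66 and 1.79 TPM (ratio 0.309). Single LEN tumors of KLN205 and CT26.WT lay well above their group mates but still under every NT tumor of the same model.

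In RAG, NT tumors had 11.97, 8.96 and 12.56 TPM and LEN tumors had 2.29, 4.81 and 3.7 TPM (ratio 0.322). In LL/2, with the NT values given above, LEN tumors had 1.68, 1.67 and 2.72 TPM (ratio 0.348). In MBT2, NT tumors had 11.58, 11.91 and 9.82 TPM and LEN tumors had 4.19, 5.73 and 2.14 TPM (ratio 0.362). All LEN tumors of these models lay under their NT tumors, with LL/2 the closest in absolute terms.

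EMT6 kept the highest LEN level, 7.27, 4.79 and 6.21 TPM, after 17.3, 16.48 and 16.21 TPM in NT (ratio 0.365). In MC38, NT tumors had 4.87, 5.96 and 3.57 TPM and LEN tumors had 2.02, 2.51 and 2.35 TPM (ratio 0.478). In Hepa 1-6, NT tumors had 9.13, 9.3 and 12.05 TPM and LEN tumors had 5.78, 4.39 and 4.42 TPM (ratio 0.479). MC38 and Hepa 1-6 had the highest ratios, and MC38 also had the lowest NT mean. Over the 12 models the mean log2 difference was -1.62, which ranked 4 from the lowest of 17351 genes, and it lay between -1.95 and -1.53 in every alternative processing tried.

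**Figure D1:**
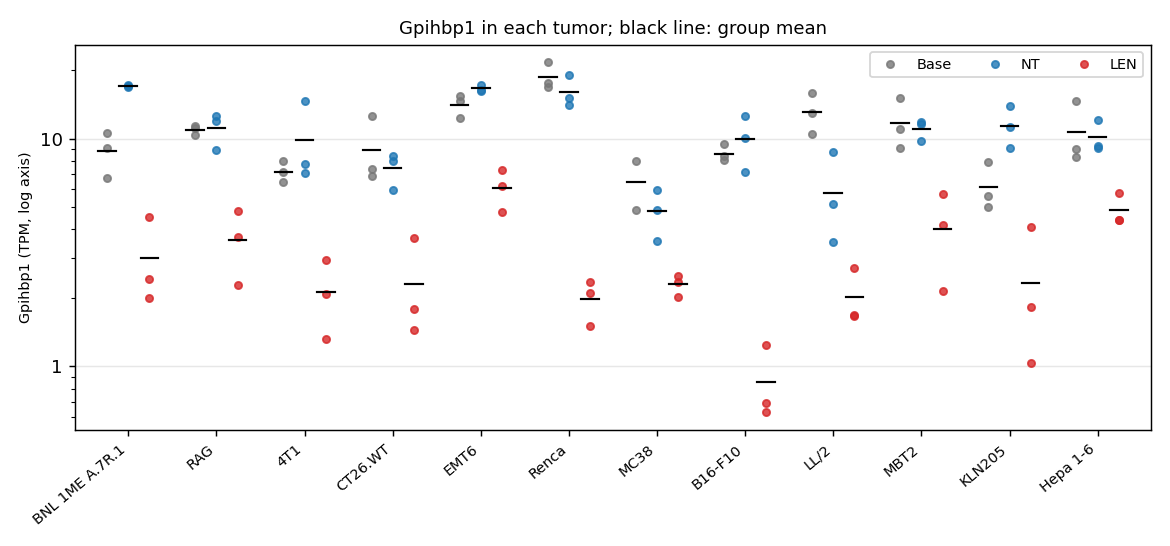
Gpihbp1 level of each tumor in TPM on a log axis, by model (x axis) and group (gray Base, blue NT, red LEN), with a black line at each group mean. In each of the 12 models the red points lie below all gray and blue points, and those of B16-F10 lie at 0.63 to 1.24 TPM.

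General endothelial genes fell after LEN. Of the 17 endothelial genes listed, 16 were tested and 15 fell, beside 9.87% of all genes called lower. The largest falls were in Cdh5 (VE-cadherin) at -1.17, Cldn5 (claudin 5 of tight junctions) at -1.09 and Emcn (endomucin) at -1.0 on the log2 scale, each with an SE up to 0.07. Pecam1 (CD31) fell by 0.72 and Kdr (VEGF receptor 2) fell by 0.71, and the list's median was -0.70 against -0.0019 for all genes tested. In bulk tumors, fewer endothelial cells and less RNA of a gene per endothelial cell cannot be told apart. The summed level of the 17 genes was lower in LEN than in NT without overlap in 11 models, and overlapped in Hepa 1-6 (117.1 to 169.0 TPM in LEN and 151.8 to 184.0 TPM in NT).

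The difference of Gpihbp1 was more negative than the mean of the 17 endothelial genes in all 12 models, which is a description since Gpihbp1 was picked for it. The excess averaged -0.96 on the log2 scale and ran from -0.34 in MC38 to -1.96 in B16-F10. The 17 genes include 1 under the minimum for testing. NT medians were 4.99 TPM for Kdr, 10.67 TPM for Gpihbp1, 15.7 TPM for Cdh5 and 17.34 TPM for Pecam1. Differences on this scale are understated for low genes, and the part of level in the excess was not tested. In 8 models none of the 17 genes had a more negative difference than Gpihbp1. The exceptions were MC38, LL/2 and Hepa 1-6, with 1 such gene each, and MBT2 with 3. When Gpihbp1 was expressed relative to the endothelial mean of the same tumor, LEN and NT tumors did not overlap in 9 models and overlapped in CT26.WT, LL/2 and MBT2.

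**Figure D2:**
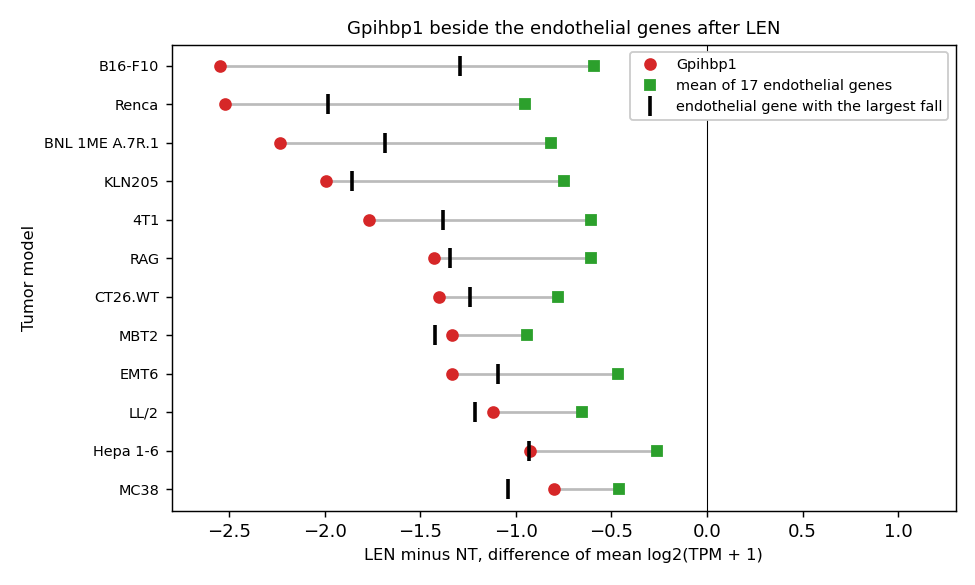
Difference between LEN and NT in mean log2(TPM + 1) (x axis) for each model (y axis), for Gpihbp1 (red circle), the mean of 17 endothelial genes (green square) and the endothelial gene with the largest fall in that model (black tick). The red circle lies left of the green square in all 12 models and left of the black tick in 8.

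Lpl, the lipase that GPIHBP1 holds, did not follow Gpihbp1. In Base its group means spanned 56.9-fold, from 1.49 ± 0.541 TPM in LL/2 to 84.6 ± 1.67 TPM in Hepa 1-6 (SD, n = 3 each), and models differed (F test, adjusted p = 3.77e-09), again as for 93.6% of genes. Hepa 1-6 stood above MC38 (23.0 ± 0.728 TPM, n = 2), MC38 above MBT2 (14.9 ± 1.72 TPM) and B16-F10 (8.69 ± 1.54 TPM) above KLN205 without overlap. The models between MBT2 and B16-F10 overlapped with their neighbors, and so did KLN205, CT26.WT and LL/2 at the low end.

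Averaged over models, Lpl was lower at day 8 without treatment than in Base and higher after LEN than in NT. These comparisons share the NT tumors, so their opposite signs are not independent. The NT minus Base difference was -0.46 (SE 0.13, adjusted p = 0.00455, lower in 9 of 12 models), and 11.5% of 17428 genes were called lower. The LEN minus NT difference was 0.41 (SE 0.11, adjusted p = 0.00346, higher in 8 of 12 models), and 13.7% of genes were called higher, or 58.1% of all calls, a share that went to 41.9% under upper-quartile and 47.4% under protein-coding rescaling. Both differences varied between models (F tests, adjusted p = 0.0166 and 0.000129, the latter against 35.3% of genes).

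The rise after LEN was called in 3 models. In BNL 1ME A.7R.1, Lpl went from 7.9, 25.63 and 8.73 TPM in Base to 2.6, 2.7 and 1.18 TPM in NT and stood at 17.32, 9.39 and 21.37 TPM in LEN. In B16-F10 the values were 7.22, 8.57 and 10.29 TPM in Base, 3.42, 4.3 and 2.66 TPM in NT and 12.56, 12.73 and 7.64 TPM in LEN. In Renca they were 6.9, 8.81 and 10.55 TPM in Base, 5.84, 3.78 and 3.21 TPM in NT and 9.76, 11.14 and 9.55 TPM in LEN.

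In all 3 models NT lay below both other groups without overlap, while LEN overlapped Base. Taken in the order BNL 1ME A.7R.1, B16-F10 and Renca, 38.1%, 20.3% and 13.3% of genes were higher in LEN than in NT without overlap, and 9.03%, 12.1% and 23.9% were lower in NT than in Base. The LEN minus NT difference was 2.40 in BNL 1ME A.7R.1 (adjusted p = 0.00228), 1.41 in B16-F10 (adjusted p = 0.0117) and 1.11 in Renca (adjusted p = 0.0100), where 26.3%, 8.57% and 4.91% of genes were called higher. The NT minus Base difference was -2.10 (adjusted p = 0.0147), -1.12 (adjusted p = 0.0472) and -0.90 (adjusted p = 0.0444) in the same order, against 4.71%, 0.641% and 7.08% of genes called lower. The last 2 of these calls were each lost when any 1 of 5 of the 6 tumors was left out (adjusted p up to 0.156 and 0.143), and the first without NT tumor 4 (adjusted p = 0.0504). With no minimum on TPM the calls in B16-F10 and Renca were lost too (adjusted p = 0.117 and 0.105), as they were without the mean-variance trend (adjusted p = 0.0686 and 0.0581), and that in B16-F10 at a minimum of 5 TPM (adjusted p = 0.0538).

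Elsewhere Lpl showed no called change. In Hepa 1-6, where it was highest, NT tumors had 60.79, 59.94 and 75.68 TPM and LEN tumors had 82.31, 85.0 and 78.27 TPM, without overlap (log2 difference 0.33, adjusted p = 0.145), as 24.6% of genes were higher without overlap in that model. In 4T1 the difference was -0.61 (adjusted p = 0.736), with 4.67, 6.2 and 1.55 TPM in NT and 2.89, 1.65 and 1.83 TPM in LEN. Those 4T1 groups overlapped. Without BNL 1ME A.7R.1 the mean over models was 0.23 for LEN minus NT (adjusted p = 0.163) and -0.31 for NT minus Base (adjusted p = 0.0676).

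Markers of adipocytes and skeletal muscle, tissues next to a subcutaneous tumor, moved with Lpl in some models and not in others. Of 8 muscle genes, 8 rose after LEN (median 0.88), led by Acta1 (skeletal actin, 1.15), Ckm (muscle creatine kinase, 1.15) and Myh4 (a fast myosin, 1.13), and 8 fell from Base to NT (median -1.12). Of 11 adipocyte genes, 4 passed the minimum for LEN minus NT, of which Cfd (adipsin, 0.91), Car3 (carbonic anhydrase 3, 0.75) and Adipoq (adiponectin, 0.54) rose and Aoc3 fell (-0.18). For NT minus Base 7 passed and 7 fell (median -0.82). Of all genes, 13.7% were called higher and 9.87% lower for LEN minus NT, and 11.5% lower for NT minus Base.

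The summed adipocyte level in BNL 1ME A.7R.1 was 52.3 to 201.3 TPM in Base, 5.1 to 16.6 TPM in NT and 110.8 to 285.4 TPM in LEN. In B16-F10 it was 22.4 to 44.9, 3.9 to 7.1 and 25.3 to 64.8 TPM in the same order. In Renca it was 24.98 to 32.1 TPM in Base, 6.4 to 16.2 TPM in NT and 4.7 to 11.4 TPM in LEN, so there it did not move with the rise of Lpl after LEN. Over all tumors the adipocyte sum ran from 1.4 to 201.3 TPM in Base, 2.0 to 28.4 TPM in NT and 2.4 to 285.4 TPM in LEN, and no marker of the list was at 0 in every tumor of a group. Adipoq itself was listed at 0 in 4 Base, 3 NT and 6 LEN tumors.

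The summed muscle level in BNL 1ME A.7R.1 was 296.7 to 670.2 TPM in Base, 41.0 to 124.2 TPM in NT and 1661.6 to 2417.8 TPM in LEN. In B16-F10 it was 108.6 to 134.0, 2.6 to 25.3 and 148.4 to 221.1 TPM in the same order. In Renca the muscle sums of NT (13.7 to 118.6 TPM) and LEN (52.0 to 85.6 TPM) overlapped. In RAG the adipocyte sum was lower in LEN (11.1 to 12.8 TPM) than in NT (16.8 to 28.4 TPM) while the Lpl difference was 0.87 (adjusted p = 0.654). In EMT6 and LL/2 the muscle sum was higher in LEN without overlap, at 56.9 to 80.8 TPM against 35.1 to 45.1 TPM and at 15.2 to 20.5 TPM against 9.55 to 12.9 TPM, while the Lpl difference was 0.06 in both. The part of neighboring tissue in the Lpl changes was not tested. In the 7 models in which neither sum separated LEN from NT (leaving out BNL 1ME A.7R.1, RAG, EMT6, B16-F10 and LL/2), the mean LEN minus NT difference of Lpl was 0.012 (adjusted p = 0.971), and in the corresponding 4 models the NT minus Base difference was 0.030 (adjusted p = 0.952). This choice of models was made after seeing the data. It leaves out 2 of the 3 models with a called rise, and the third of them, Renca, remains among the 7. The 4 models leave out BNL 1ME A.7R.1, B16-F10 and Renca, the 3 models with a called fall from Base to NT. Both means depend on this choice and are no test of the part of neighboring tissue.

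Cd36, the membrane transporter of fatty acids, fell from Base to day 8 and showed no called mean change after LEN. Base means ran from 1.48 ± 0.359 TPM in KLN205 to 24.9 ± 1.3 TPM in Hepa 1-6 (SD, n = 3 each), and models differed (F test, adjusted p = 2.09e-07, beside 93.6% of genes). Hepa 1-6, BNL 1ME A.7R.1, MBT2 and EMT6 formed an overlapping upper run, and EMT6 (16.6 ± 7.67 TPM) stood above B16-F10 (9.02 ± 1.06 TPM) without overlap. KLN205 stood below all others.

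NT minus Base for Cd36 was -0.70 (SE 0.11, adjusted p = 1.65e-06, lower in 8 of 12 models) and varied between models (F test, adjusted p = 0.000143). BNL 1ME A.7R.1 went from 14.42, 30.51 and 19.17 TPM in Base to 4.57, 3.92 and 4.41 TPM in NT (log2 difference -2.02, adjusted p = 0.00236). Renca went from 5.31, 5.71 and 7.4 TPM to 1.8, 1.4 and 1.91 TPM (-1.39, adjusted p = 0.00517), and LL/2 from 7.5, 7.25 and 6.71 TPM to 1.95, 1.77 and 2.84 TPM (-1.37, adjusted p = 0.00971, against 2.02% of LL/2 genes called lower). NT lay wholly below Base in each of these 3 models. Lower without overlap were 9.03% of genes in BNL 1ME A.7R.1, 23.9% in Renca and 10.7% in LL/2. In BNL 1ME A.7R.1 and Renca, 4.71% and 7.08% of genes were called lower. In BNL 1ME A.7R.1 and Renca the adipocyte and muscle sums were also lower in NT without overlap. Their part in the Cd36 difference was not tested. In the 4 models without such shifts, chosen after seeing the data, the mean was -0.43 (adjusted p = 0.111). That choice leaves out BNL 1ME A.7R.1 and Renca and keeps fewer tumors, so this mean is no test of the part of neighboring tissue. In RAG, CT26.WT, MBT2 and KLN205 the Cd36 mean was higher in NT by at most 0.29, with overlapping tumors and no call.

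LEN minus NT for Cd36 was 0.19 (SE 0.09, adjusted p = 0.134, 95% interval 0.0056 to 0.38), with 6 models higher and 6 lower, and the effect varied between models (F test, adjusted p = 0.000924). BNL 1ME A.7R.1 rose to 15.67, 10.81 and 14.98 TPM, above all NT tumors (1.47, adjusted p = 0.000663). Hepa 1-6 had 12.54, 13.18 and 20.66 TPM in NT and 34.55, 43.05 and 22.2 TPM in LEN, and B16-F10 had 7.08, 4.15 and 5.31 TPM in NT and 17.18, 9.39 and 8.6 TPM in LEN. Those pairs did not overlap either, but missed the threshold (1.04, adjusted p = 0.105, and 0.93, adjusted p = 0.0807). Higher without overlap were 38.1% of genes in BNL 1ME A.7R.1, 24.6% in Hepa 1-6 and 20.3% in B16-F10. In BNL 1ME A.7R.1, 26.3% of genes were called higher.

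Lower means after LEN in 3 further models were not called. MC38 had 4.54, 7.34 and 5.95 TPM in NT and 4.52, 3.16 and 4.03 TPM in LEN (-0.49, adjusted p = 0.423). LL/2 had 1.65, 1.74 and 1.28 TPM in LEN (-0.31, adjusted p = 0.411). MBT2 had 30.59, 17.64 and 28.55 TPM in NT and 20.05, 11.64 and 10.51 TPM in LEN (-0.84, adjusted p = 0.278). Of these 3 the MBT2 groups overlapped, and 6.41% of MC38 genes and 23.7% of LL/2 genes were lower without overlap. Without MBT2 the mean over models was 0.29 (adjusted p = 0.0249).

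Fabp4, the fatty acid-binding protein of adipocytes and capillary endothelium, was lower at day 8 than in Base and lower again after LEN. Base means ran from 4.55 ± 2.16 TPM in KLN205 to 89.1 ± 53.0 TPM in BNL 1ME A.7R.1 (SD, n = 3 each) and differed between models (F test, adjusted p = 0.000108, beside 93.6% of genes). Spread within a model was large. The Base tumors of 4T1 had 102.89, 9.35 and 44.88 TPM, and those of EMT6 had 34.44, 30.88 and 108.99 TPM. Neighbors in the order of models overlapped, except that MC38 stood above LL/2 and LL/2 above KLN205.

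NT minus Base for Fabp4 was -0.99 (SE 0.14, adjusted p = 7.61e-07, lower in 11 of 12 models), the largest mean difference among the 5 genes in that comparison, and it varied between models (F test, adjusted p = 0.00276). Renca went from 19.99, 17.18 and 20.74 TPM to 3.66, 3.92 and 6.66 TPM (-1.85, adjusted p = 0.00387). BNL 1ME A.7R.1 went from 48.89, 149.2 and 69.29 TPM to 31.42, 26.05 and 28.87 TPM (-1.44, adjusted p = 0.0285), a call lost without any 1 of 4 of its 6 tumors (adjusted p up to 0.0947) and with no minimum on TPM (adjusted p = 0.0581). Neither pair of groups overlapped. Lower without overlap were 23.9% of genes in Renca and 9.03% in BNL 1ME A.7R.1, and 7.08% and 4.71% were called lower. In 4T1 the NT tumors had 4.07, 3.52 and 3.07 TPM, for a difference of -3.02 that missed the threshold (adjusted p = 0.0944). The adipocyte and muscle sums moved in the same direction in 8 and 6 models, and their part in this fall was not tested. In the 4 models, chosen after seeing the data, whose adipocyte and muscle sums overlapped between NT and Base (CT26.WT, LL/2, KLN205 and Hepa 1-6), the mean was -0.26 (adjusted p = 0.414). These 4 leave out Renca and BNL 1ME A.7R.1, which held the called falls, and also 4T1. The mean depends on that choice and is no test of the part of neighboring tissue.

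LEN minus NT for Fabp4 was -0.42 (SE 0.12, adjusted p = 0.00533, lower in 10 of 12 models), against 9.87% of genes called lower. Its variation between models missed the threshold (F test, adjusted p = 0.0528), and no single model reached it. The largest difference was in MBT2, from 27.56, 29.4 and 15.19 TPM to 8.76, 4.68 and 4.98 TPM (-1.80, adjusted p = 0.0776), and without MBT2 the mean was -0.29 (adjusted p = 0.0795). MC38 went from 13.25, 18.63 and 14.17 TPM to 6.23, 9.25 and 9.13 TPM (-0.83), and CT26.WT from 17.91, 28.18 and 20.16 TPM to 16.02, 14.51 and 11.56 TPM (-0.61). LEN lay wholly below NT in these 3 models, where 10.6%, 6.41% and 7.58% of genes did so in the same order. BNL 1ME A.7R.1 had the opposite sign, with 55.81, 30.4 and 72.81 TPM in LEN (0.78, adjusted p = 0.0832), and overlapped its NT group.

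Fabp5, a fatty acid-binding protein found in many cell types including tumor cells, had no called mean change after LEN. Base means ran from 7.64 ± 1.09 TPM in Renca to 232 ± 24.9 TPM in B16-F10 (SD, n = 3 each) and differed between models (F test, adjusted p = 1.06e-15, beside 93.6% of genes). B16-F10, Hepa 1-6 (135 ± 17.9 TPM) and BNL 1ME A.7R.1 (91.7 ± 9.25 TPM) stood apart from each other and from all lower models without overlap. LL/2 stood above MBT2, and RAG above EMT6, while EMT6, CT26.WT and Renca overlapped at the low end. These separations hold for Fabp5 alone, and some of them changed under the limit of counting given below.

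NT minus Base for Fabp5 was -0.26 (SE 0.08, adjusted p = 0.0114, lower in 10 of 12 models) and varied between models (F test, adjusted p = 0.000306). BNL 1ME A.7R.1 rose from 84.31, 102.04 and 88.6 TPM to 207.58, 237.92 and 195.02 TPM (1.21, adjusted p = 0.000837). Renca fell from 6.75, 8.86 and 7.31 TPM to 2.24, 3.17 and 2.79 TPM (-1.21, adjusted p = 0.00681). Groups did not overlap in either model. In BNL 1ME A.7R.1, 36.6% of genes were higher without overlap and 23.6% were called higher. In Renca, 23.9% were lower without overlap and 7.08% were called lower. Without Renca the mean was -0.17 (adjusted p = 0.130).

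LEN minus NT for Fabp5 was 0.05 (SE 0.10, adjusted p = 0.763, 95% interval -0.14 to 0.24), and the effect varied between models (F test, adjusted p = 0.0131). The F call was lost without BNL 1ME A.7R.1 (adjusted p = 0.0536) or without Renca (adjusted p = 0.0826). The mean was -0.043 without EMT6 and -0.042 without Renca. BNL 1ME A.7R.1 fell to 129.95, 132.58 and 137.78 TPM (-0.67, adjusted p = 0.00129, against 5.21% of genes called lower). Renca rose to 6.03, 8.23 and 6.21 TPM (1.06, adjusted p = 0.00577). LEN and NT did not overlap in either model, and LEN of Renca overlapped Base. In BNL 1ME A.7R.1, 9.21% of genes were lower without overlap. In Renca, 13.3% were higher without overlap and 4.91% were called higher. In EMT6 the difference of 1.08 (adjusted p = 0.328) rested on 1 tumor at 39.03 TPM beside 12.66 and 8.73 TPM, and in that tumor Krt5, a keratin of basal epidermis, was 44.65 TPM against 0.04 TPM in both others. The part of skin in that value was not tested.

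Fabp5 values carry a further limit of counting. Of the 938 windows of 50 bases in its main transcript, 198 (21.1%) also occur in transcripts of other genes, mainly the processed pseudogene Gm6166, which holds 184 of them. The corresponding share was 1.69% for Lpl and 0 for Gpihbp1, Cd36 and Fabp4. Gm6166 was named after its values were seen. How reads were divided between both genes is unknown, and the order of the Fabp5 levels between models depends on it. The summed Base level was 274 ± 18.3 TPM in Hepa 1-6 and 234 ± 24.6 TPM in B16-F10 (SD, n = 3 each), with overlapping tumors, whereas for Fabp5 alone B16-F10 stood above. B16-F10 (211.2 to 260.0 TPM summed) then also overlapped BNL 1ME A.7R.1 (171.0 to 217.2 TPM). MBT2 (52.3 to 61.3 TPM) stood above LL/2 (36.9 to 40.9 TPM) without overlap, the reverse of Fabp5 alone. RAG (31.2 to 54.95 TPM) and EMT6 (12.4 to 37.7 TPM) overlapped. With the levels of Fabp5 and Gm6166 summed, the mean difference was 0.084 for LEN minus NT (adjusted p = 0.612) and -0.31 for NT minus Base (adjusted p = 0.00403), and the calls in BNL 1ME A.7R.1 and Renca stood in both comparisons.

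**Figure D3:**
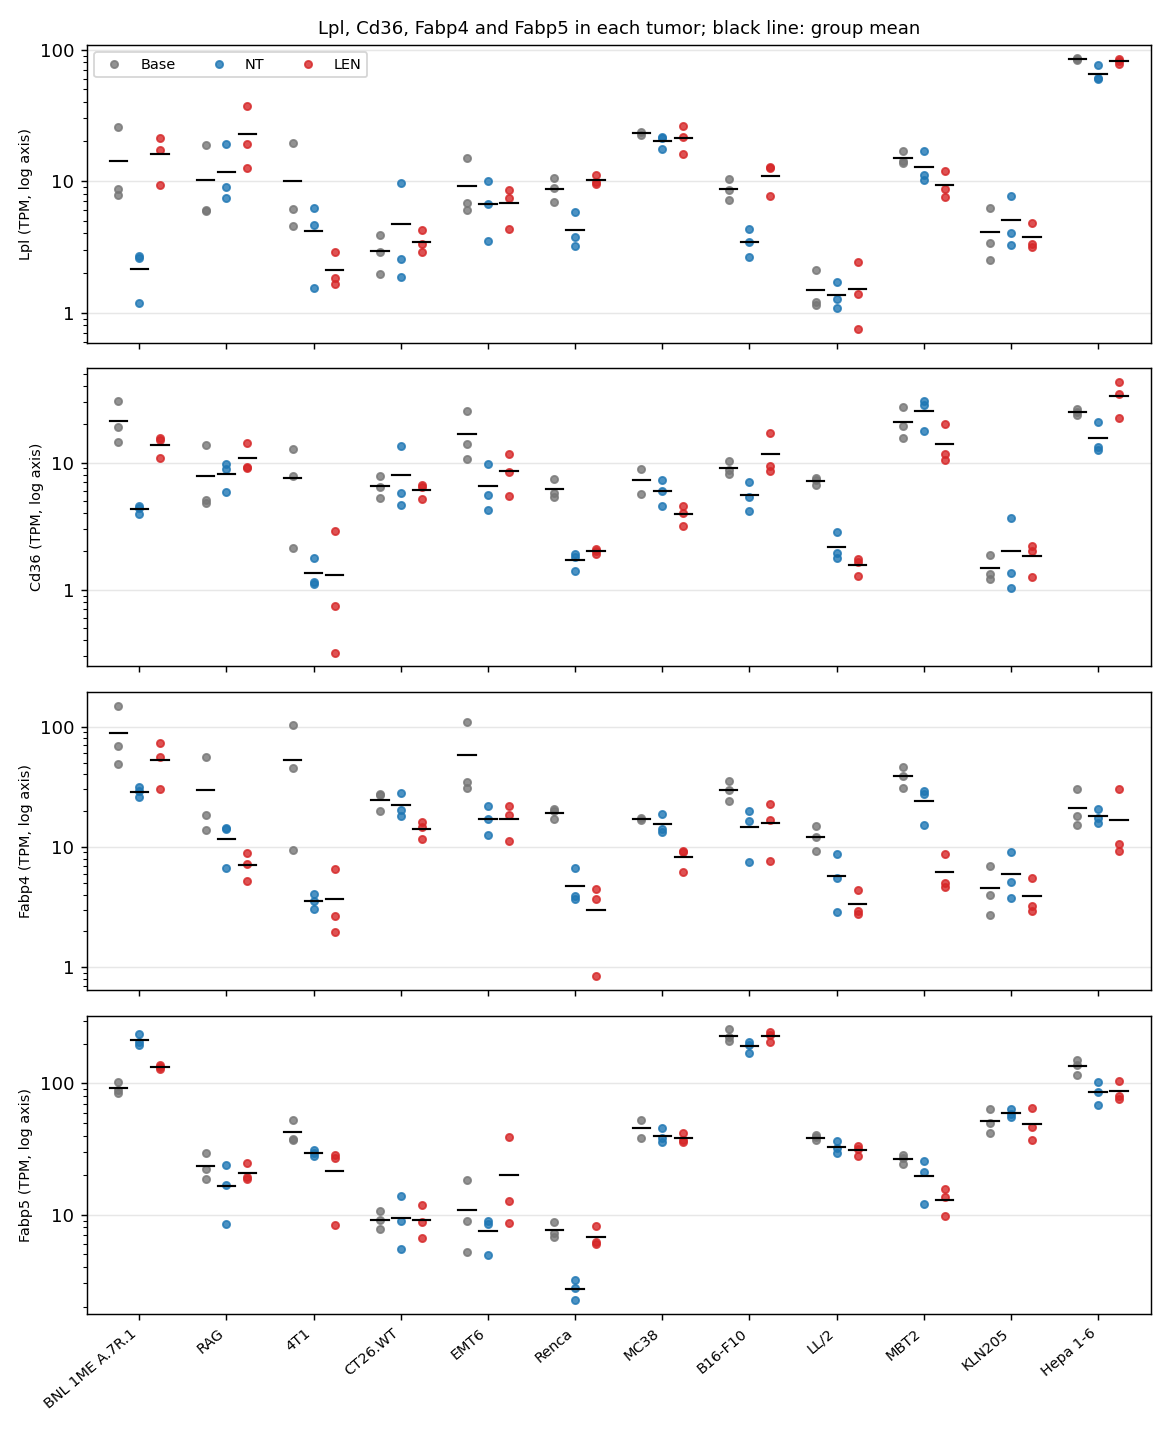
Levels of Lpl, Cd36, Fabp4 and Fabp5 in each tumor in TPM on log axes, by model (x axis) and group (gray Base, blue NT, red LEN), with a black line at each group mean. Lpl of B16-F10, Renca and BNL 1ME A.7R.1 dips in NT and stands higher in LEN, Fabp4 is mostly lower in NT than in Base, and Fabp5 spans 7.64 to 232 TPM between Base means.

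Across the 4 tested genes and 12 models, 48 tests of LEN against NT gave 5 higher and 1 lower calls, all in Renca, B16-F10 and BNL 1ME A.7R.1. In these 3 models 4.91%, 8.57% and 26.3% of all genes were called higher, and 5.21% were called lower in BNL 1ME A.7R.1, which held the lower call. For NT minus Base, 60 tests of the 5 genes gave 3 higher and 9 lower calls in 5 models, with 5 calls in BNL 1ME A.7R.1, where 23.6% of all genes were called higher and 4.71% lower, and 4 in Renca, where 7.08% were called lower. The plot of mean changes shows Gpihbp1 apart from the others.

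**Figure D4:**
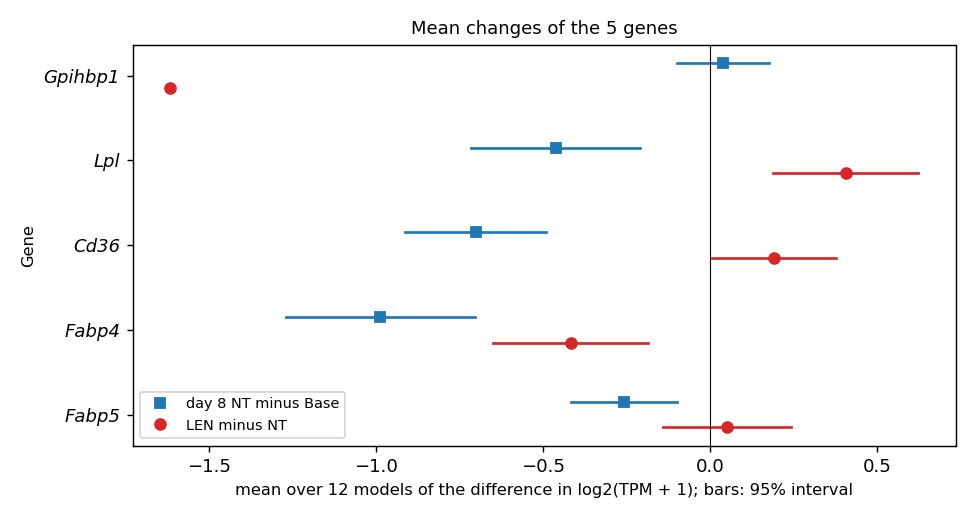
Mean over 12 models of the difference in log2(TPM + 1) for NT minus Base (blue squares) and LEN minus NT (red circles) of each gene, with 95% intervals from limma. Gpihbp1 is at -1.62 for LEN minus NT, shown without an interval because it was picked for that difference, and at 0.04 for NT minus Base, while Fabp4 is below 0 in both.

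Of 17 other genes of the lipase pathway (its modifiers, apolipoproteins and lipoprotein receptors), 14 were tested for LEN minus NT, of which 3 were called lower and 5 higher, with a median of 0.09 and beside 9.87% of all genes called lower and 13.7% called higher. The largest falls were in Apoe (apolipoprotein E, -0.33), Apoc2 (the cofactor that activates the lipase, -0.31) and Scarb1 (a receptor for high-density lipoprotein, -0.13). The largest called rises were in Vldlr (the very-low-density lipoprotein receptor, 0.41), Furin (a protease that cleaves the lipase, 0.21) and Lmf1 (the factor that matures the lipase, 0.13, adjusted p = 0.0094). Apoc1, an apolipoprotein, was higher by 0.26 without a call (adjusted p = 0.164). Angptl4, which inactivates the lipase, was at 1.93 to 68.52 TPM in NT and 4.93 to 70.83 TPM in LEN, with no call on the mean (0.12, adjusted p = 0.182). For NT minus Base, 1 gene of the 14 was called lower and 3 higher, which became 3 lower and 2 higher under either rescaling. Over all genes 11.5% were called lower and 17% higher in that comparison, or 2002 lower and 2971 higher, which became 3524 and 1419 under upper-quartile and 3851 and 1199 under protein-coding rescaling.

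Of 17 genes of fatty acid transport and storage, all tested, 7 rose after LEN and 1 fell (median 0.12), beside the same shares of all genes. The largest rises were in Dgat2 (which makes triglyceride, 0.40), Hilpda (an inhibitor of lipolysis induced by hypoxia, 0.39) and Slc27a3 (a fatty acid transport protein family member, 0.21), and the fall was in Cpt1a (carnitine transfer for mitochondrial oxidation, -0.17). For NT minus Base, 6 of them fell and 5 rose, which became 10 and 2 under either rescaling, beside 11.5% of all genes lower and 17% higher as deposited. Neither scaling alternative changed the sign of a called gene of these lists that it tested, and the single called gene under the minimum after rescaling was Fabp3 (a heart and muscle fatty acid-binding protein) for LEN minus NT. After LEN the 8 muscle genes and Adipoq, Cfd and Car3 rose too, while Aoc3 fell. The part of muscle and adipose tissue in the rises of the transport and storage genes was not tested.

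Of 15 regulators of endothelial lipid uptake and angiogenesis, 12 were tested for LEN minus NT. Dll4, a Notch ligand of endothelial tip cells, fell by 0.98 in the mean and was lower in 12 of 12 models, Apln (apelin) fell by 0.48 and Flt1 (VEGF receptor 1, which binds VEGF-B) fell by 0.43, and the list had 4 lower calls in all, or 5 under either rescaling. Rbpj, the Notch effector, was the single gene called higher (0.10). Of all genes, 9.87% were called lower and 13.7% higher. Pparg, which drives Fabp4 and Cd36, was not called after LEN (0.09, adjusted p = 0.53) and fell from Base to NT by the same test (-0.29, adjusted p = 0.0245). Of 13 regulators tested for NT minus Base, 5 fell and 4 rose, and those that rose became 2 under upper-quartile and 1 under protein-coding rescaling. As deposited, 11.5% of all genes were called lower and 17% higher in that comparison.

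Meox2 and Tcf15, transcription factors known to drive lipid uptake genes of heart capillaries, were under the minimum for LEN minus NT. Meox2 had medians of 1.39 TPM in Base, 1.195 TPM in NT and 0.605 TPM in LEN, and fell from Base to NT (-0.22, adjusted p = 0.0018). Tcf15 was listed at 0 in 6 Base, 8 NT and 21 LEN tumors. Of 9 other markers of capillary endothelium, 5 were tested. Car4 (carbonic anhydrase 4 of the capillary wall, 0.55), Rgcc (0.24) and Sgk1 (a kinase, 0.24) were called higher and Cd300lg (an endothelial mucin-like receptor, -0.27) lower, beside 13.7% and 9.87% of all genes. For NT minus Base, 3 of 6 tested capillary markers fell (4 under either rescaling), among them Car4 (-0.85), and none rose. As deposited, 11.5% of all genes were called lower there.

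Macrophages, which also express Lpl, Cd36 and Fabp4, differed in the same comparisons. Of 10 macrophage genes, 8 fell after LEN (median -0.37, beside 9.87% of all genes called lower), led by Mrc1 (mannose receptor, -0.53), Csf1r (the CSF1 receptor, -0.45) and C1qc (complement, -0.44). Their sum was lower in LEN without overlap in 6 models and higher in B16-F10 (132.0 to 188.1 TPM in NT and 391.4 to 545.6 TPM in LEN), where Lpl also rose. In the other models with a called rise of Lpl, the macrophage sum was lower in LEN in Renca (1484 to 1688 TPM in NT and 721 to 735 TPM in LEN) and overlapped in BNL 1ME A.7R.1. All 6 pericyte genes fell (median -0.56), led by Rgs5 (-0.94), Abcc9 (-0.78) and Kcnj8 (-0.75). Of 6 fibroblast genes, Col1a1 fell (-0.29) and Dcn rose (0.36), and of 4 tested epidermal genes Krt14 rose (0.59), beside 13.7% of all genes called higher. The part of these cell types in the changes of the 5 genes was not tested.

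From Base to NT, 11 of 17 endothelial genes fell (median -0.21 against 0.013 for all genes), including Pecam1 (-0.32), Emcn (-0.22) and Kdr (-0.18), and 15 did so under either rescaling, while Gpihbp1 had no called mean change. Of 10 macrophage genes 2 fell in that comparison, of 6 fibroblast genes 3 fell (6 under either rescaling), and none of the pericyte and epidermal genes tested was called. As deposited, 11.5% of all genes were called lower. Calls over all genes leaned higher (59.7% of calls) but leaned lower after upper-quartile (28.7%) or protein-coding rescaling (23.7%).

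**Figure D5:**
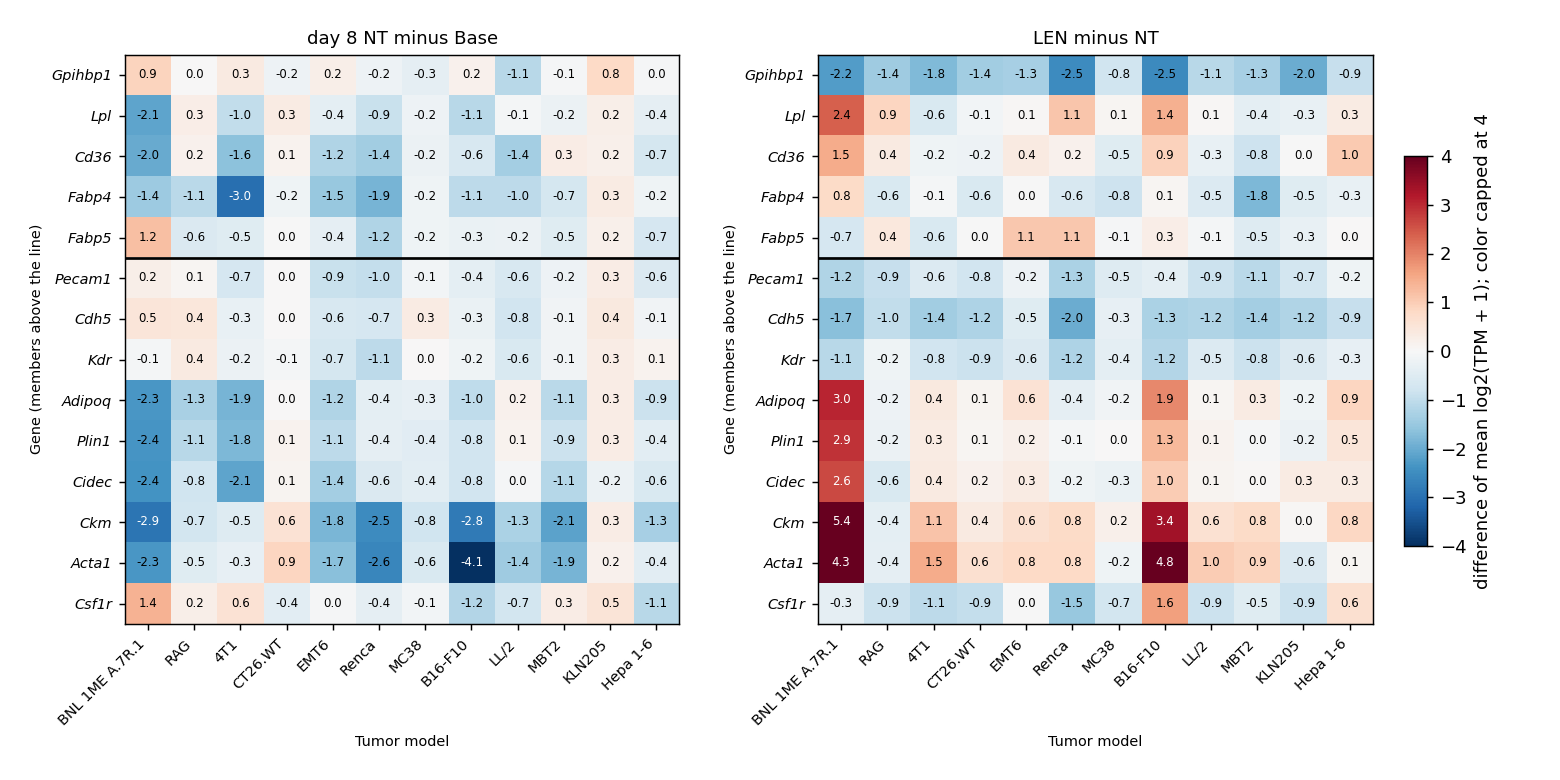
Difference in mean log2(TPM + 1) for NT minus Base (left) and LEN minus NT (right), by model (columns) and gene (rows, with the 5 genes above the line and markers of endothelium, adipocytes, muscle and macrophages below it). Gpihbp1 is blue in all 12 models on the right, the adipocyte and muscle markers are strongly red in BNL 1ME A.7R.1 and B16-F10, where Lpl is red too, and most of these rows are blue on the left.

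Similarity of pattern was described over the 35 Base tumors and is given without a test, since tumors of a model share its cell line and host. The genes most like Gpihbp1 among 17542 were Palm (Pearson r = 0.80), Fut11 (0.77), Fam234a (0.77), Sesn1 (0.75) and Atxn1 (0.74). Those most like Lpl were Igfbp5 (0.89), Apoc1 (0.87), Acsl1 (0.84), Pparg (0.84) and Itih5 (0.83). Cd36 was closest to Glul (0.82), Rab8b (0.79), Evl (0.79), Degs2 (0.77) and Fabp4 (0.75).

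Fabp4 was closest to Plin1 (0.83), Adipoq (0.81), Cidec (0.79) and Cfd (0.76), which are 4 of the listed adipocyte markers, and to Armc8 (0.76). Fabp5 was closest to Zfp109 (0.84), Rnaseh2c (0.84), Rai1 (0.81), Krba1 (0.81) and Dennd5b (0.80). When the mean of each of the 36 groups was removed, the genes most like Gpihbp1 over all tumors were Nid2 (0.55), Sox5 (0.50), Adgrf5 (0.50), Cldn5 (0.49) and Esam (0.49). In those deviations Gpihbp1 had an r of 0.057 with Lpl and 0.053 with Cd36, whereas Lpl and Cd36 had 0.70, and Fabp4 had 0.73 with Adipoq.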

How the data were processed

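RNA of the mouse tumors was sequenced by the authors after ribosomal RNA depletion. Per the submitters' processing notes, reads were trimmed with Trimmomatic 0.36, aligned with STAR 2.5.2b and quantified with RSEM 1.2.31 on mm10/GRCm38, and the authors deposited 1 table of TPM values, which sum to the same total in each tumor. TPM keeps no depth, so sequencing depth is unknown and no counting interval can be given. The paper names more than 1 sequencing instrument for its mouse and human tumors together. The instrument of each tumor was not given in the sources used here, so differences between instruments could not be checked, also between Base and day 8 tumors. RNAs of protein-coding genes took 27.5% to 66.6% of TPM. Groups came from the labels, and the labels do not say whether tumors of a group came from separate mice, so p-values measure the spread between these tumors.

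Values were tested as log2(TPM + 1) with limma 3.58.1 (R 4.3.3, mean-variance trend, two-sided) in genes with a mean of at least 1 TPM, and Benjamini-Hochberg adjusted over all genes with a threshold of 0.05. Fold changes on this scale understate the change of low genes. Means over models and F tests between models used 72 (LEN and NT) or 71 (NT and Base) tumors, and tests within a model used its own tumors alone. The code was tested on simulated data. Tumor numbers shared between groups were checked for pairing. Of 20 same-numbered pairs of LEN and NT, 0 correlated above 0.1 in their deviations from group means, and of 25 pairs of NT and Base, 1 did, so tumors were not treated as paired. Named genes were the 5 genes, the 3 largest falls and rises called in each list, set markers, and the 5 genes most like each. The 5 genes, lists and tests were chosen with earlier results of these data known. Alternatives were another pseudocount (0.1), no minimum or a minimum of 5 TPM, upper-quartile and protein-coding rescaling, no trend, a block for tumor number, and leaving out each tumor or model. Transcript sequences came from GENCODE M21. Correlations are Pearson's, over genes with a mean of at least 1 TPM.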

Additional observations from a re-analysis of the deposited data

Results flagged for a closer look

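The following differences varied between the 12 models in limma's F test over all genes tested, a call that 35.3% of genes had for LEN minus NT and 66.5% for NT minus Base. For LEN minus NT these were Lpl (adjusted p = 0.000129), Cd36 (adjusted p = 0.000924) and Fabp5 (adjusted p = 0.0131), with the highest values of Lpl and Cd36 in BNL 1ME A.7R.1 and opposite signs of Fabp5 in BNL 1ME A.7R.1 and Renca. For NT minus Base they were Gpihbp1 (adjusted p = 0.000156), Lpl (adjusted p = 0.0166), Cd36 (adjusted p = 0.000143), Fabp4 (adjusted p = 0.00276) and Fabp5 (adjusted p = 0.000306). Single outlying tumors were not tested.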

How the results depend on the processing

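Of 2855 values recomputed under alternatives, 2727 kept direction and side of the threshold (counts within 1.5 times). Causes of the changes were not tested unless samples or genes were simply fewer. Below, F stands before the adjusted p of the F test between models, and other values are mean log2 differences. TPM gives no depth, so how far low levels are limited by counting is unknown.

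LEN minus NT. Fabp4's F test passed at a minimum of 5 TPM (0.0462) and without RAG (0.0445), 4T1 (0.0385), Renca (0.0347), B16-F10 (0.0397), LL/2 (0.0436), KLN205 (0.0427) or Hepa 1-6 (0.0359), and ran from 0.0258 to 0.121 over single tumors left out. Genes called lower numbered 3163 and 2807 under upper-quartile and protein-coding rescaling, with 2 lower calls in the 48 tests of single models under each, against 1, and 1 to 2 over single tumors. Without BNL 1ME A.7R.1, Lpl was 0.23, the F test of Fabp5 gave 0.0536 and 1440 genes were higher. Fabp5 was -0.043 without EMT6 and -0.042 without Renca, whose omission gave F 0.0826. Without MBT2, Cd36 was 0.29 and Fabp4 -0.29. In the 7 models chosen after seeing the data, Lpl was 0.012 (F 0.157), Cd36 -0.075 (F 0.131), Fabp5 -0.059 (F 0.110), with 867 genes higher.

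NT minus Base. Genes lower numbered 951 at a minimum of 5 TPM, 3524 (1419 higher) and 3851 (1199 higher) under the rescalings, and genes higher 1950 without EMT6 and 1765 without KLN205. Gpihbp1 was -0.0079 and -0.017 under the rescalings, -0.039 without BNL 1ME A.7R.1, -0.029 without KLN205 and -0.14 in the 4 models chosen after seeing the data. There Lpl was 0.030 (F 0.605), Cd36 -0.43, Fabp4 -0.26 (F 0.111) and Fabp5 -0.18 (F 0.104), with 373 genes lower and 308 higher. Without BNL 1ME A.7R.1, Lpl was -0.31 (F 0.232) and Fabp5 had F 0.136. Fabp5 was -0.17 without Renca. Lpl's F ran from 0.00473 to 0.0680 over single tumors left out, missing the threshold without Base tumor 2 (0.0680) or NT tumor 4 (0.0559) of BNL 1ME A.7R.1.

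With a block for tumor number, which did not pair the tumors, the mean calls of Lpl were lost for LEN minus NT (0.24, adjusted p = 0.281) and NT minus Base (-0.40, adjusted p = 0.0958), as was that of Fabp5 for NT minus Base (-0.22, adjusted p = 0.108). LEN minus NT gave F 0.118 for Lpl, 0.110 for Cd36 and 0.104 for Fabp5, and 1280 genes higher. NT minus Base gave F 0.320 for Lpl, 0.0706 for Cd36 and 0.0858 for Fabp4, and 830 genes lower and 1082 higher under this block. Of calls in single models it lost Lpl and Fabp5 for LEN minus NT in Renca (adjusted p = 0.122 and 0.0874) and, for NT minus Base, all 5 in BNL 1ME A.7R.1 (0.104 to 0.139), all 4 in Renca (0.111 to 0.261) and Gpihbp1 in KLN205 (0.144).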

Other observations

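Gm6166, the processed pseudogene that shares sequence with Fabp5, had a level near that of Fabp5 in 9 models and near 0 in the 3 models grown in C57BL/6JCrl or C57BL/6NCrl mice. Its Base mean was 139 TPM in Hepa 1-6 beside 135 TPM of Fabp5, and 6.91 to 97.9 TPM in the 8 other models outside C57BL/6 hosts. In LL/2 it was 0.13 TPM beside 38.7 TPM of Fabp5, in MC38 0.415 TPM beside 45.8 TPM, and in B16-F10 2.34 TPM beside 232 TPM. This was noticed after the values were seen and was not tested.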
